A study of Mus musculus with 9 samples.

Results

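The TGF-beta and BMP response genes described here were 10 genes taken by symbol from the deposited expression table, 10 of 22322 genes in all. They were the ligand genes Tgfb1, Tgfb2, Tgfb3 and Bmp4, the 4 ID genes Id1, Id2, Id3 and Id4, and the inhibitory SMAD genes Smad6 and Smad7. All 10 passed the low-count filter and were among the 12145 genes tested. RNA sequencing had been run on 9 libraries of mouse cells of WT genotype sold as retinal ganglion cells (RGCs), 3 for each of 3 groups. The normal RGCs received no treatment. The aging RGCs were exposed to D-galactose, a sugar used to induce senescence in culture, and so aging here means this exposure and not the age of an animal. The aging RGCs + USCs medium received the same D-galactose exposure and then medium conditioned by human urine-derived stem cells (USCs), without the stem cells themselves. None of the 9 libraries came from cells given unconditioned stem cell medium. Effects of what the stem cells released and of a change of base medium therefore cannot be told apart. The study's methods name replicated wells, so the spread between libraries, and every p-value below, describes wells of a purchased culture.

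TGF-beta and BMP ligands bind pairs of serine/threonine kinase receptors, which phosphorylate SMAD transcription factors. TGF-beta acts mainly through SMAD2 and SMAD3, and BMPs act mainly through SMAD1, SMAD5 and SMAD9. The ID genes are early targets of BMP signalling, and their proteins bind bHLH transcription factors and keep them off DNA. SMAD6 and SMAD7 are induced by these signals and inhibit them, SMAD6 mainly on the BMP side and SMAD7 on both. In the retina, BMP4 helps to set dorsal identity during development, and the pathway is also known for its part in survival and in fibrotic change.

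Normal RGC libraries held total counts of 19814236 to 22342283, aging RGC libraries held 18189610 to 19556335, and libraries with USCs medium held 20238813 to 21054300. The label of the cells was checked against markers. Of 11 RGC markers, 3 had a mean of at least 1 FPKM (fragments scaled by transcript length and library size, as the authors deposited them) in each group. These 3 were Rbpms, Nefl and Isl1, whose highest counts in a library were 1422, 1392 and 437. Among the other RGC markers, Pou4f2 and Pou4f3 had 0 counts in all 9 libraries. Thy1 had at most 1 count and Pou4f1 at most 27 counts. The RGC markers were therefore present in part and absent in part. The summed FPKM of the 8 epithelial markers was 636.1 to 710.9 over the 9 libraries, against 32.9 to 60.8 for the RGC markers. The epithelial sum was almost all Krt8, Krt18 and Krt19, while Krt5 was at 0, Krt14, Cdh1 and Cldn4 were at or under 0.06 FPKM in the mean of each group and Epcam was at 0.763 to 1.20 FPKM. The sum of 7 glial markers was higher still, at 818 to 975 FPKM, and was carried by Vim, which many cultured cells express, while Gfap and Aqp4 were at or near 0. The cells are therefore called by the name on their label only. The 8 mesenchymal markers summed to between 110.7 and 124.5 FPKM in normal RGCs, between 90.9 and 106.1 FPKM in aging RGCs, and between 62.3 and 68.2 FPKM with USCs medium. The RGC markers summed to between 59.0 and 60.8, between 41.6 and 45.4, and between 32.9 and 36.6 FPKM in the same order. The 10 macrophage markers summed to between 45.7 and 55.8, between 35.9 and 40.2, and between 23.7 and 41.2 FPKM, and the 5 endothelial markers to between 3.23 and 5.73, between 2.28 and 3.18, and between 0.6 and 1.58 FPKM. Most of the macrophage sum was Cd68, with means of 32.3, 34.1 and 24.4 FPKM, and its other markers did not follow Cd68. Lyz2 (11.95, 2.44 and 3.82 FPKM) and Adgre1 (0.77, 0.0167 and 0.187 FPKM) were lowest in aging RGCs. Csf1r fell in both steps (1.25, 0.557 and 0.157 FPKM). The glial sum was between 818 and 863 FPKM in normal RGCs, between 948 and 975 FPKM in aging RGCs and between 882 and 940.2 FPKM with USCs medium. Col3a1 carried most of the mesenchymal sum, with means of 96.7, 81.7 and 50.2 FPKM, while Twist1 was at 14.0, 14.7 and 11.9 FPKM. These sums moved in the same libraries as several genes below, and their part in those results was not tested. In RNA from whole cultures, fewer cells of a type and less RNA per cell cannot be told apart.

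Sequences from the 250 bases before a RefSeq transcript start of 3 genes are shown because BMP-activated SMADs are known to bind GC-rich elements at ID genes. They are those of Id2 and Id4, the ID genes called higher in aging RGCs, and of Tgfb1, the most highly expressed of the ligand genes, while the window of Id3 is annotated exon throughout and is not shown. RefSeq promoters on GRCm38.p6 were matched for 7 of the 10 genes, all but Id1, Tgfb3 and Smad7. The 250 bases before the start were searched on both strands for the palindrome GGCGCC, its variant GGAGCC and the SMAD-binding core CAGAC. Capitals mark GGCGCC or GGAGCC. The Id4 run is chr13:48260866-48261115 on the plus strand, and the Tgfb1 run is chr7:25686752-25687001 on the plus strand. The Id2 run is chr12:25096254-25096342 on the minus strand, the part of its window that is not annotated as exon of a longer Id2 transcript. This run lies inside the annotated Id2 gene (chr12:25093799-25097140) and not upstream of it. The other 161 bases of the window, annotated as exon, lie between the run and the transcript start, so the Id2 run is not next to that start.
Id4: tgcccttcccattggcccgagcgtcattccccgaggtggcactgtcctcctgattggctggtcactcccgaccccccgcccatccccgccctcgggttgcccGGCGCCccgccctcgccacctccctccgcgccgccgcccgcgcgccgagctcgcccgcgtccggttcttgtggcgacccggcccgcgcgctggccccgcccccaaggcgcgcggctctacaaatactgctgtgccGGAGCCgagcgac
Id2: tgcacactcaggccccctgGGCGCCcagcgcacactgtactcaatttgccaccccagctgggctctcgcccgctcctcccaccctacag
Tgfb1: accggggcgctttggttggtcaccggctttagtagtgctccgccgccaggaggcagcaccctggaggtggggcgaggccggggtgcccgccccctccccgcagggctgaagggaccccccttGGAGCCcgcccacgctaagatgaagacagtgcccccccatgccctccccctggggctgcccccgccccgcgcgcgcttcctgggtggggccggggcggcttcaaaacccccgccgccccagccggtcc
GGCGCC was present in 2 of the 7 windows, those of Id2 and Id4, and in 9.6% of 32851 RefSeq promoter windows of the same length. GGAGCC was present in 6 of the 7, all but Tgfb2, against 26.0% of all promoters. CAGAC was present in 2 of the 7, Tgfb2 and Id3, against 42.2% of all. The windows of the 7 genes were 53.6% to 75.6% GC against a median of 52.4%, and among the 9178 promoters with at least 60% GC the shares were 26.1% for GGCGCC, 46.5% for GGAGCC and 38.6% for CAGAC. A match describes letters in the window and not a bound site.

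On the FPKM scale, which allows levels to be compared between genes, Id1 was the highest of the 10 with a mean of 106.4 FPKM over the 9 libraries, above 94.8% of the genes tested. Tgfb1 followed at 70.5 FPKM and Id3 at 67.0 FPKM, and Id2 was at 16.2 FPKM. Tgfb3 was at 7.67 FPKM, Smad7 at 4.66 FPKM and Smad6 at 1.45 FPKM. The lowest were Id4 at 0.642 FPKM, Bmp4 at 0.409 FPKM and Tgfb2 at 0.301 FPKM, the last of these above only 4.64% of the genes tested. The ligand transcript of these cells was therefore mostly Tgfb1, and the ID transcript mostly Id1 and Id3. The levels that follow are CPM, counts scaled to a common library size, on TMM-scaled library sizes, given in the order of replicates 1, 2 and 3, with mean ± SD over n = 3. Fold changes are log2 values from the quasi-likelihood test of edgeR, and p-values were adjusted by Benjamini-Hochberg over all genes tested.

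**Figure D1:**
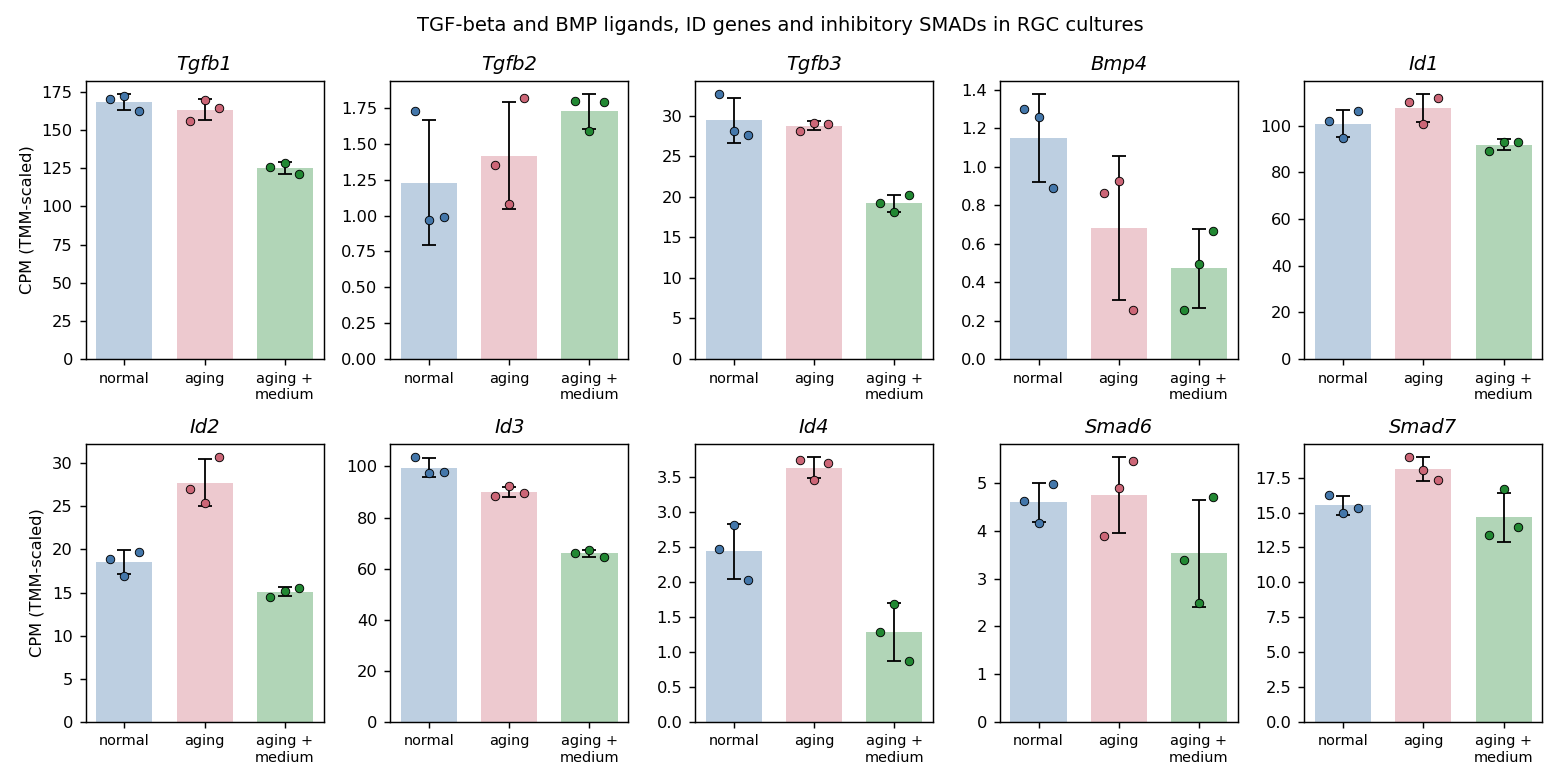
Level of each of the 10 genes in the 9 libraries, in CPM on TMM-scaled library sizes, with each panel on its own axis. Points are libraries, bars are the mean of 3 libraries and whiskers are the SD. Id2 and Id4 stand highest in aging RGCs, and Tgfb1, Tgfb3 and Id3 stand lowest in aging RGCs + USCs medium.

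The first comparison, aging RGCs against normal RGCs, asked what D-galactose exposure changed. Id2, Id4 and Smad7 were upregulated, Id3 was downregulated, and the other 6 genes did not pass the test. Over all genes tested, 23.6% were called higher and 23% lower, so that 3 higher and 1 lower of 10 is near the background for either direction. None of the 10 changed by 2-fold, where 1.09% of all genes were called higher and 1.56% lower at that size. Their median log2 fold change was 0.07, against 0.002 over all genes tested. The second comparison, aging RGCs + USCs medium against aging RGCs, asked what the conditioned medium changed in exposed cells. Tgfb1, Tgfb3, Id1, Id2, Id3, Id4 and Smad7 were downregulated, 7 of 10, and none was upregulated, where 26% of all genes tested were called lower and 27.1% higher. Their median log2 fold change was -0.44, against -0.007 over all genes. The third comparison set aging RGCs + USCs medium against normal RGCs. Tgfb1, Tgfb3, Bmp4, Id1, Id2, Id3 and Id4 were lower, again 7 of 10, none was higher, and the median was -0.41 against -0.013 over all genes, with 29.9% of all genes called lower and 30.6% higher. Changes of at least 2-fold were called upward for none of the 10 in these comparisons with USCs medium, against 1.24% and 1.47% of all genes. The libraries of the groups compared did not overlap in CPM for the same 3 higher genes and 1 lower gene in the first comparison, where 27% and 26% of all genes were separated upward and downward. In the second they were separated downward for 7 and upward for 0, against 29.3% and 30.4% of all genes, and in the third for 7 and 0, against 31.9% and 31.9%. The 3 comparisons share libraries, since each group enters 2 of them. The 10 genes were chosen with earlier results of these data known, so their counts and medians are descriptive.

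**Figure D2:**
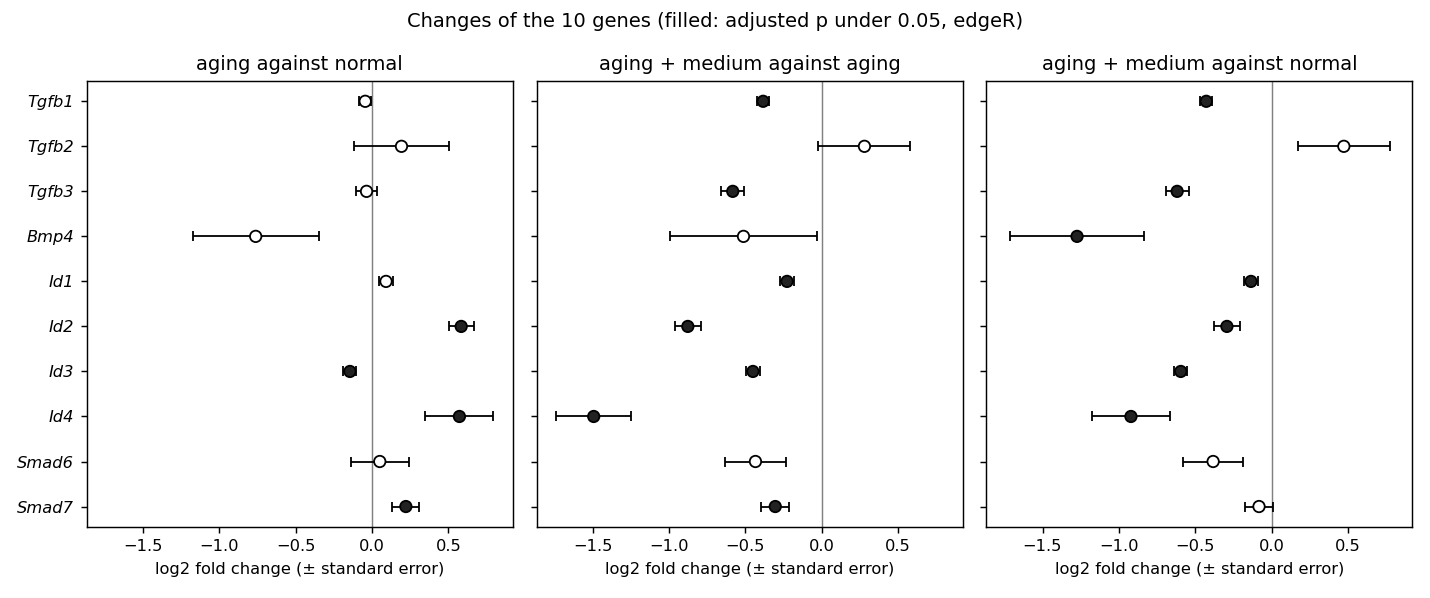
Log2 fold change of each of the 10 genes in the 3 comparisons, with whiskers of 1 standard error, filled where the edgeR adjusted p was under 0.05. In aging RGCs + USCs medium against aging RGCs, 9 of the 10 values are below 0, with Tgfb2 the exception at 0.28.

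Tgfb1 (chr7:25687002-25705077, plus strand, GRCm38) encodes the main TGF-beta ligand of many cultured cells, made as a latent complex. Its level was 170.3, 172 and 163 CPM in normal RGCs (168 ± 5.15), 156, 170 and 165 CPM in aging RGCs (163 ± 6.97), and 126, 128 and 121 CPM in aging RGCs + USCs medium (125 ± 3.75). The normal and aging libraries overlapped, and all 3 libraries with USCs medium lay below both. The log2 difference was -0.04 ± 0.039 (SE, adjusted p = 0.378) for aging against normal RGCs. With USCs medium Tgfb1 was lower, with a log2 fold change of -0.38 ± 0.040 (adjusted p = 4.44e-09) against aging RGCs and -0.43 ± 0.040 (adjusted p = 2.79e-10) against normal RGCs. Both calls were retained under each of the 19 alternatives tried.

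Tgfb3 (chr12:86056745-86079041, minus strand), another ligand of the same receptors, was at 32.7, 28.1 and 27.6 CPM in normal RGCs (29.4 ± 2.79), 28.2, 29.2 and 29.0 CPM in aging RGCs (28.8 ± 0.529), and 19.2, 18.2 and 20.3 CPM with USCs medium (19.2 ± 1.06). As for Tgfb1, only the libraries with USCs medium stood apart, and they were below every other library. The log2 fold change was -0.04 ± 0.072 (adjusted p = 0.718) for aging against normal RGCs and -0.58 ± 0.076 (adjusted p = 2.43e-07) for USCs medium against aging RGCs. Against normal RGCs it was -0.62 ± 0.075 (adjusted p = 4.39e-08). Tgfb2, the third isoform, was near the lower end of what these libraries count. It was at 1.73, 0.969 and 0.987 CPM in normal RGCs, 1.35, 1.08 and 1.82 CPM in aging RGCs and 1.80, 1.59 and 1.79 CPM with USCs medium, and the groups overlapped in all 3 comparisons. Its log2 difference was 0.28 ± 0.301 (adjusted p = 0.455) for USCs medium against aging RGCs. Against normal RGCs it was 0.47 ± 0.302 (adjusted p = 0.18), and leaving out normal replicate 1 gave 0.82 with an adjusted p of 0.0477.

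Bmp4, a BMP ligand, rested on few reads. Its counts were 30, 26 and 18 in normal RGCs, 16, 18 and 5 in aging RGCs and 5, 10 and 13 with USCs medium. The 3 libraries with USCs medium lay below the 3 normal ones, while the aging libraries overlapped both. The log2 fold change was -1.27 ± 0.436 (adjusted p = 0.0133) for USCs medium against normal RGCs, the only change of at least 2-fold among the 10 genes in that comparison, where 5.24% of all genes tested were called lower by that much. Without replicate 1 of the USCs medium group the adjusted p was 0.0858. Against normal RGCs, aging RGCs had a log2 difference of -0.76 ± 0.411 (adjusted p = 0.133), and USCs medium against aging RGCs had -0.51 ± 0.483 (adjusted p = 0.388). Bmp4, Tgfb2, Tgfb3 and Id4 share exon bases with genes annotated on the other strand, and the strand setting of the authors' counting is not given in the sources used here, so reads of such neighbours cannot be told apart. The neighbour of Bmp4, Gm15217, had 0 counts in every library. With the strand setting unknown, that does not show that the reads counted for Bmp4 were its own.

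Id2 (chr12:25093799-25097140, minus strand, GRCm38) had the strongest change of the 10 under D-galactose by adjusted p. Its level was 18.8, 17.0 and 19.7 CPM in normal RGCs (18.5 ± 1.39), 27.0, 25.4 and 30.7 CPM in aging RGCs (27.7 ± 2.74), and 14.5, 15.2 and 15.6 CPM with USCs medium (15.1 ± 0.554). The 3 groups did not overlap, with the aging libraries highest and the libraries with USCs medium lowest. Id2 rose in aging RGCs by 0.58 ± 0.081 on the log2 scale (adjusted p = 9.28e-07). With USCs medium it fell by 0.88 ± 0.084 against aging RGCs (adjusted p = 8.78e-10) and had a log2 fold change of -0.29 ± 0.087 against normal RGCs (adjusted p = 0.00469). These 3 calls held under each of the 19 alternatives.

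Id4 (chr13:48261228-48266026, plus strand) followed the same order at a far lower level. Its counts were 57, 58 and 41 in normal RGCs, 69, 67 and 73 in aging RGCs, and 25, 34 and 17 with USCs medium. In CPM these were 2.47, 2.81 and 2.02, then 3.73, 3.45 and 3.70, then 1.28, 1.69 and 0.871, again with no overlap between any of the groups. With USCs medium, Id4 fell by 1.49 ± 0.247 on the log2 scale against aging RGCs (adjusted p = 9.87e-06), a level 2.82-fold lower. It was the only one of the 10 past 2-fold in this comparison, where 4.21% of all genes tested were called lower by at least that. The log2 fold change against normal RGCs was -0.92 ± 0.257 (adjusted p = 0.00285). The rise of 0.57 ± 0.222 in aging over normal RGCs had an adjusted p of 0.0358, and that call was lost without normal replicate 1 (0.0776) or 3 (0.149) and without aging replicate 1 (0.0909), 2 (0.0611) or 3 (0.0903), with DESeq2 (0.057) and with limma on log2(FPKM + 0.1) (0.0801).

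Id1 (chr2:152736251-152737410, plus strand), the most highly expressed of the 10, was at 102, 94.5 and 106 CPM in normal RGCs (101 ± 5.91), 110.1, 101 and 112 CPM in aging RGCs (108 ± 5.93), and 89.1, 93.2 and 93.1 CPM with USCs medium (91.8 ± 2.32). The normal and aging libraries overlapped and those with USCs medium were lowest. The log2 difference for aging against normal RGCs was 0.09 ± 0.047 (adjusted p = 0.11), which became 0.0491 without normal replicate 3 and 0.0336 without aging replicate 2. Id1 fell by 0.23 ± 0.047 with USCs medium against aging RGCs (adjusted p = 0.000195), a call kept under each alternative. Against normal RGCs the log2 fold change was -0.14 ± 0.047 (adjusted p = 0.0149), with an adjusted p of 0.103 without normal replicate 3 and 0.0766 without replicate 1 of the USCs medium group.

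Id3 (chr4:136143497-136145755, plus strand) went down in both steps. It was at 104, 97.4 and 97.7 CPM in normal RGCs (99.6 ± 3.59), 88.6, 92.4 and 89.5 CPM in aging RGCs (90.2 ± 1.99), and 66.1, 67.4 and 64.4 CPM with USCs medium (66.0 ± 1.51). No library of any group overlapped another group. The log2 fold change was -0.14 ± 0.043 (adjusted p = 0.00663) for aging against normal RGCs, -0.45 ± 0.045 (adjusted p = 1.6e-09) for USCs medium against aging RGCs and -0.60 ± 0.044 (adjusted p = 2.58e-12) for USCs medium against normal RGCs. These calls held under each alternative. Under D-galactose the ID genes therefore did not move together, with Id2 and Id4 called higher, Id3 lower and Id1 not called, whereas with USCs medium all 4 were called lower than in aging RGCs.

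The 4 ID genes summed to between 195.8 and 211.4 FPKM in normal RGCs and between 202.8 and 216.3 FPKM in aging RGCs, which overlapped, and to between 151.3 and 157.2 FPKM with USCs medium. Within that sum, the mean share of Id1 was 53.4% ± 1.29 in normal RGCs, 55.0% ± 1.40 in aging RGCs and 60.4% ± 0.659 with USCs medium. Id3 made up 39.0% ± 1.49, 34.0% ± 1.80 and 32.0% ± 0.799 in the same order. Id2 made up 7.28% ± 0.278, 10.5% ± 0.715 and 7.38% ± 0.186, and Id4 stayed under 1% of the sum. The ID pool was thus smaller with USCs medium and held relatively more Id1. The summed FPKM of the 3 TGF-beta ligand genes was 89.0 ± 3.49 in normal RGCs, 85.1 ± 3.15 in aging RGCs and 61.2 ± 0.826 with USCs medium. Tgfb1 made up 89.7% ± 0.836, 89.5% ± 0.288 and 90.5% ± 0.718 of it, which overlapped between the groups. These sums, and the marker sums above, use the deposited FPKM, to which TMM factors were not applied. On log2(FPKM + 1) the median change of all genes tested was -0.06 for USCs medium against aging RGCs and -0.08 against normal RGCs. The sums are not adjusted for that shift.

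**Figure D3:**
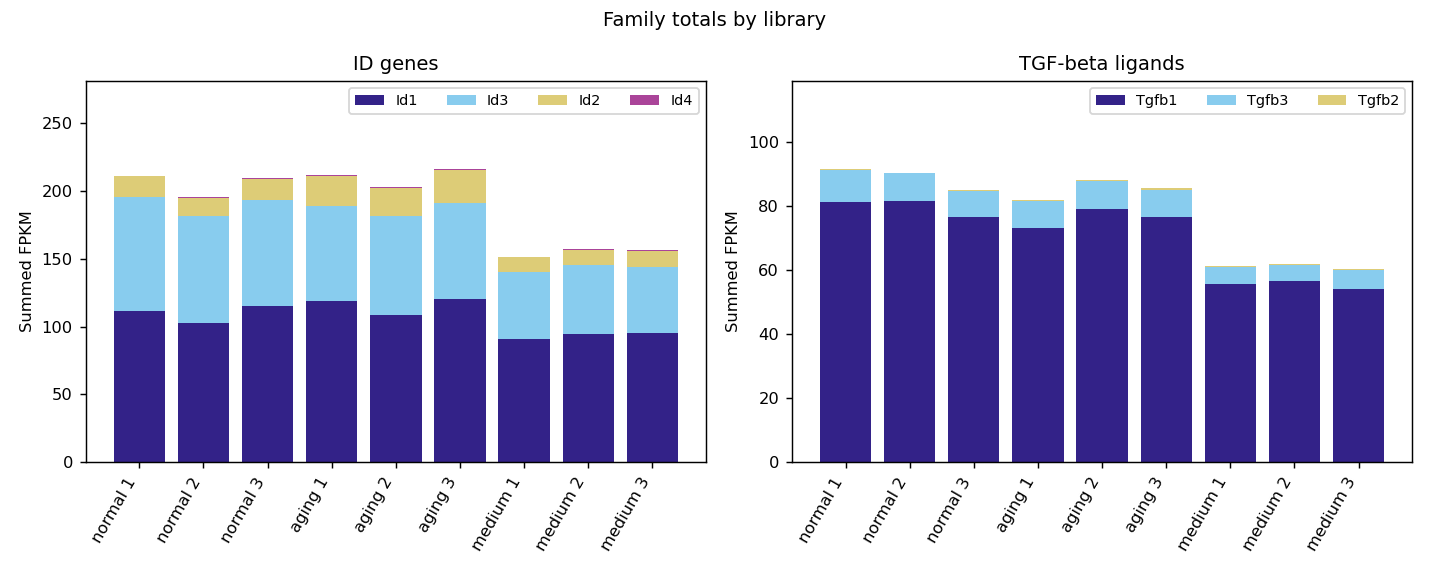
Summed FPKM of the ID genes (left) and the TGF-beta ligand genes (right) in each of the 9 libraries, stacked by gene, with Id4 and Tgfb2 barely visible at this scale. The ID and ligand sums are lowest in the 3 libraries with USCs medium.

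Smad7, the inhibitor of both branches, was at 16.3, 14.98 and 15.3 CPM in normal RGCs (15.5 ± 0.683), 19.0, 18.1 and 17.3 CPM in aging RGCs (18.1 ± 0.833), and 13.4, 16.7 and 13.9 CPM with USCs medium (14.7 ± 1.77). The aging libraries were highest, and those with USCs medium overlapped the normal ones. The rise in aging RGCs was 0.22 ± 0.089 on the log2 scale (adjusted p = 0.0419). That call was lost with DESeq2 (0.0813), without TMM factors (0.068), without normal replicate 2 (0.113) or 3 (0.102) and without aging replicate 1 (0.146) or 2 (0.0834). In the deposited FPKM the same libraries overlapped, at 4.79, 4.94 and 5.58 FPKM in normal RGCs and 6.30, 5.01 and 4.47 FPKM in aging RGCs. On that scale the log2 difference was near 0, at 0.03 ± 0.114 with limma on log2(FPKM + 1) (adjusted p = 0.87) and 0.03 ± 0.136 on log2(FPKM + 0.1) (adjusted p = 0.878). Smad7 fell by 0.30 ± 0.090 with USCs medium against aging RGCs (adjusted p = 0.00566), or 0.0502 without replicate 1 of the USCs medium group. Against normal RGCs its log2 difference was -0.08 ± 0.091 (adjusted p = 0.444) from the counts, whereas limma on log2(FPKM + 1) gave -0.41 ± 0.114 (adjusted p = 0.011) and limma on log2(FPKM + 0.1) gave -0.50 ± 0.136 (adjusted p = 0.00978).

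Smad6, the inhibitor that acts mainly on BMP signalling, was not called in any of the 3 comparisons. It was at 4.63, 4.17 and 4.98 CPM in normal RGCs, 3.89, 4.89 and 5.47 CPM in aging RGCs and 3.39, 2.48 and 4.71 CPM with USCs medium, and the groups overlapped. Replicate 3 of the USCs medium group was the highest of its group. The log2 difference for USCs medium against aging RGCs was -0.43 ± 0.197 (adjusted p = 0.0649), and the adjusted p became 0.0077 without that library, 0.032 without aging replicate 1, 0.0304 without TMM factors and 0.0435 with the replicate number as a block. For USCs medium against normal RGCs it was -0.38 ± 0.195 (adjusted p = 0.0917), or 0.0102 without that library.

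The rest of the pathway was read from lists of related genes. Their counts stand beside the shares of all genes tested, 23.6% higher and 23% lower for aging against normal RGCs. For USCs medium against aging RGCs the shares were 27.1% higher and 26% lower. The lists are small, and a count near these shares is no result about a list. Of those named below, Bmp6, Rgma, Tgif2, Usp15, Fstl3, Thbs1, Ltbp3, Itgav, Ccn2 and Fn1 share exon bases with a gene on the other strand, with the limit given above for Bmp4. Of the 8 tested genes of 27 other family ligands, 4 were lower in aging than in normal RGCs and none was higher, with a median log2 fold change of -0.59. With USCs medium against aging RGCs, 1 was higher and 2 were lower, with a median of -0.07. Gdf15, a stress-induced family member, was at 24.8 ± 1.14, 8.17 ± 0.223 and 11.8 ± 1.06 CPM in normal RGCs, aging RGCs and USCs medium. It fell by 1.60 ± 0.091 on the log2 scale in aging RGCs (adjusted p = 2.48e-14) and rose by 0.53 ± 0.0999 with the medium (adjusted p = 5.22e-05). Bmp2, a BMP ligand, was at 11.2 ± 0.972, 10.1 ± 1.18 and 4.84 ± 0.957 CPM in the same order and fell by 1.06 ± 0.141 on the log2 scale with the medium (adjusted p = 3.39e-07). Bmp6 fell by 0.72 ± 0.157 in aging RGCs (adjusted p = 0.00041), with a log2 difference of 0.03 ± 0.167 for the medium (adjusted p = 0.881).

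Of 12 receptor and co-receptor genes tested, 2 were higher and 2 lower in aging than in normal RGCs, and none was higher and 3 lower with USCs medium than in aging RGCs. Tgfbr2, the type II TGF-beta receptor, fell by 0.27 ± 0.053 with the medium (adjusted p = 9.31e-05), and Rgmb, a BMP co-receptor, fell by 0.58 ± 0.075 (adjusted p = 2.31e-07). Of the 6 receptor-regulated and common SMADs, 3 were lower with USCs medium than in aging RGCs and none was higher. Smad3, which carries the TGF-beta signal, was at 95.5 ± 3.15 CPM in normal RGCs, 94.4 ± 1.83 CPM in aging RGCs and 67.9 ± 1.66 CPM with USCs medium, a log2 fold change of -0.48 ± 0.044 in the last step (adjusted p = 4.48e-10). On the BMP side, Smad5 fell by 0.16 ± 0.041 (adjusted p = 0.00153) and Smad9 by 0.68 ± 0.185 (adjusted p = 0.00286), while Smad1 had a log2 difference of 0.12 ± 0.071 (adjusted p = 0.177). These falls concern transcripts, and phosphorylated SMAD protein was not measured in these libraries.

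Among 12 intracellular regulators, 2 were higher and 5 lower in aging RGCs than in normal RGCs, and 5 were higher and 3 lower with USCs medium than in aging RGCs. Ski, a corepressor of SMAD complexes named here after its values were seen, rose from 96.3 ± 5.43 to 122 ± 3.06 CPM in aging RGCs and stood at 95.3 ± 3.51 CPM with the medium. Its log2 fold change was 0.35 ± 0.044 (adjusted p = 2.42e-07) and then -0.36 ± 0.044 (adjusted p = 8.8e-08). Skil, its paralog, had the opposite signs, at -0.25 ± 0.062 (adjusted p = 0.00144, or 0.0728 with limma on log2(FPKM + 1)) and 0.43 ± 0.062 (adjusted p = 1.21e-06). Usp15, a deubiquitinase of the pathway, rose by 0.45 ± 0.037 with the medium (adjusted p = 5.23e-11) and Tgif2, another corepressor, fell by 0.41 ± 0.065 (adjusted p = 6.37e-06). Pmepa1, a membrane protein gene that TGF-beta induces and that limits its signal, also named after its values were seen, was near the floor of counting at 0.261 ± 0.123 and 0.258 ± 0.180 CPM in normal and aging RGCs and was at 1.64 ± 0.221 CPM with the medium, a log2 fold change of 2.63 ± 0.451 (adjusted p = 1.63e-05).

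Of 16 extracellular antagonists only 5 were tested, and with USCs medium against aging RGCs 1 was higher and 2 were lower. Fstl3, which binds activins, fell by 0.78 ± 0.127 in aging RGCs (adjusted p = 1.04e-05) and rose by 1.10 ± 0.125 with the medium (adjusted p = 2.1e-08). Nbl1, a BMP antagonist, fell by 0.82 ± 0.176 with the medium (adjusted p = 0.000256), and Twsg1, a modulator of BMP binding, by 0.27 ± 0.038 (adjusted p = 8.46e-07). Of the 9 tested genes for latency and activation of TGF-beta, 6 were lower and 1 higher with USCs medium than in aging RGCs. Over all genes tested, 26% were lower and 27.1% higher in that comparison. Thbs1, whose protein activates latent TGF-beta, was at 43.8 ± 0.600, 43.6 ± 1.85 and 21.9 ± 2.29 CPM in normal RGCs, aging RGCs and USCs medium, a log2 fold change of -0.99 ± 0.068 in the last step (adjusted p = 1.14e-12). Ltbp3, a latent TGF-beta binding protein gene, fell by 0.24 ± 0.049 in aging RGCs (adjusted p = 0.000195) and by 0.50 ± 0.052 with the medium (adjusted p = 3.94e-09). Itgav, the integrin subunit that takes part in activation, fell by 0.20 ± 0.031 (adjusted p = 6.99e-06) and by 0.34 ± 0.032 (adjusted p = 5.63e-10) in the same steps.

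**Figure D4:**
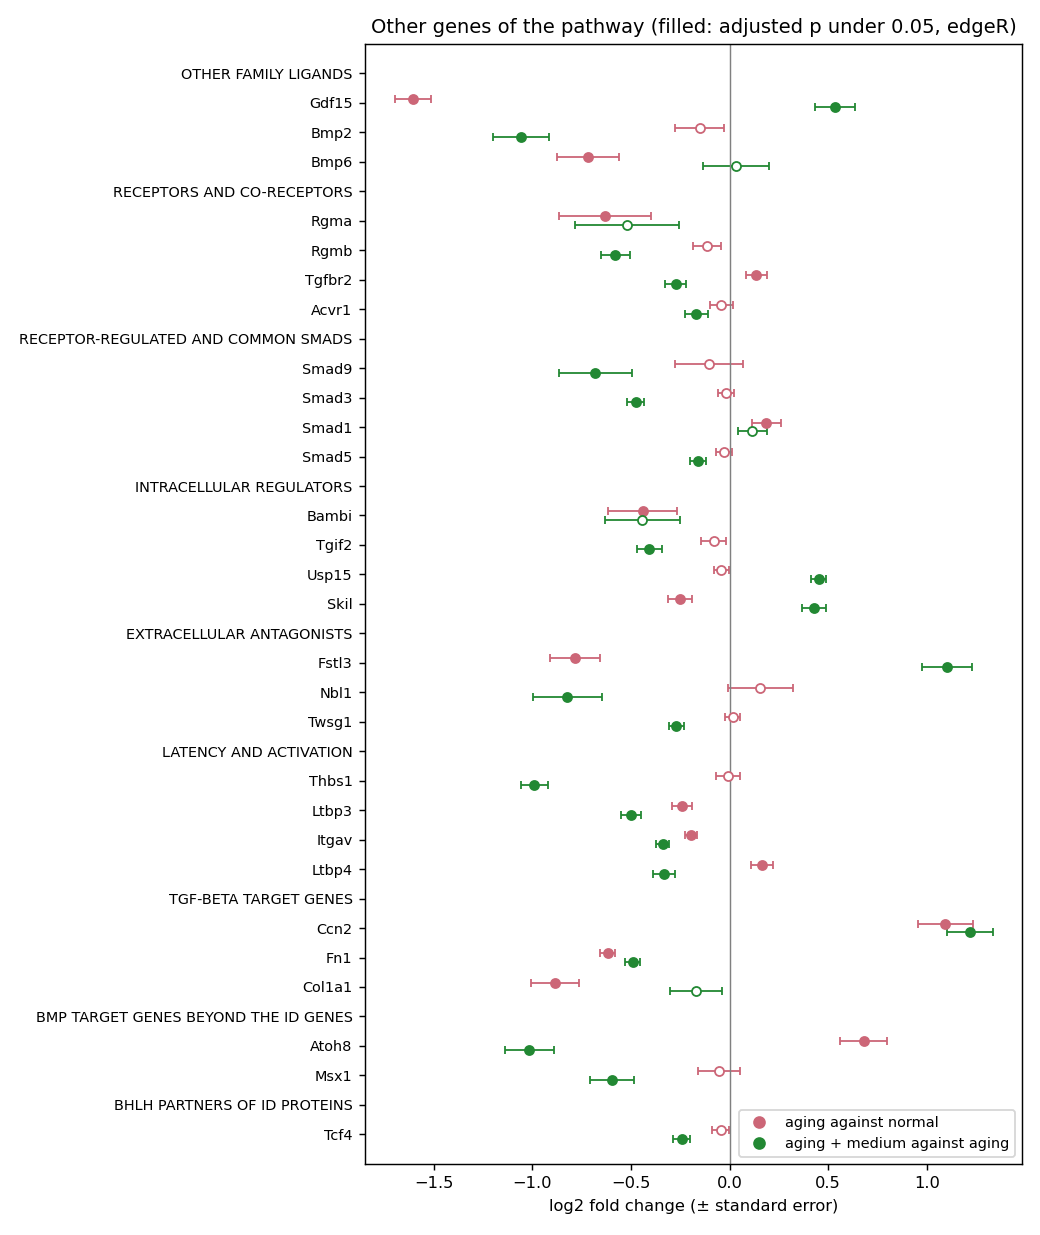
Log2 fold changes of the named genes of each pathway list, with whiskers of 1 standard error, for aging against normal RGCs (red) and aging RGCs + USCs medium against aging RGCs (green), filled where the edgeR adjusted p was under 0.05. The 4 named of the 9 tested latency and activation genes are below 0 with USCs medium, while Ccn2 is above 0. The 1 latency and activation gene called higher with USCs medium is not plotted.

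Some of the smaller changes plotted for the pathway genes depended on the libraries kept and on the fit used. For aging against normal RGCs, the calls of Rgma, Tgfbr2, Smad1, Bambi and Ltbp4 were each lost on leaving out 1 library, for more than 1 choice of library. With DESeq2 the adjusted p was 0.0649 for Tgfbr2, 0.0717 for Smad1 and 0.0715 for Bambi. With limma on log2(FPKM + 1) it was 0.115, 0.123 and 0.0548 for these genes and 0.101 for Ltbp4. The adjusted p from edgeR reached 0.144 for Rgma without aging replicate 1, 0.194 for Tgfbr2 without aging replicate 3, 0.183 for Smad1 without aging replicate 2, 0.239 for Bambi without normal replicate 1 and 0.0747 for Ltbp4 without normal replicate 3. For USCs medium against aging RGCs, the call of Acvr1, a type I receptor gene, had an adjusted p of 0.112 without replicate 3 of the USCs medium group.

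TGF-beta target genes were called in both directions. Of 11 tested, 3 were higher and 6 lower in aging than in normal RGCs, and 4 were higher and 2 lower with USCs medium than in aging RGCs, with medians of -0.20 and 0.12. Ccn2, the connective tissue growth factor gene, rose in both steps, from 3.88 ± 0.704 to 8.24 ± 0.703 and 19.1 ± 1.74 CPM, by 1.09 ± 0.140 on the log2 scale (adjusted p = 2.54e-07) and 1.22 ± 0.115 (adjusted p = 6.94e-10). Fn1, for fibronectin, fell in both, by 0.62 ± 0.038 (adjusted p = 1.42e-13) and 0.49 ± 0.039 (adjusted p = 1.7e-11). Col1a1 fell by 0.88 ± 0.120 in aging RGCs (adjusted p = 6.86e-07). The summed mesenchymal markers given above fell in the same libraries as Fn1, and their part was not tested. That sum is not independent of the target list, since Col3a1, Col1a1, Col1a2 and Acta2 are in both.

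Of 9 tested BMP target genes beyond the ID genes, 4 were lower and none higher with USCs medium than in aging RGCs, with a median of -0.44. This list is not independent of those above, since Smad9, which is 1 of the 4, is also counted with the SMADs. Bambi, whose value is the median, is also counted with the intracellular regulators. Another of the 4 had a mean log2 CPM under 1, near the floor of counting, and is not named. Atoh8, a bHLH transcription factor gene, was highest in aging RGCs, as Id2 was. It was at 10.6 ± 2.19 CPM in normal RGCs, 17.1 ± 1.24 CPM in aging RGCs and 8.44 ± 1.09 CPM with USCs medium. It rose by 0.68 ± 0.119 on the log2 scale (adjusted p = 2.93e-05) and fell by 1.02 ± 0.124 (adjusted p = 8.28e-08). For USCs medium against normal RGCs the libraries overlapped, unlike those of Id2. That log2 fold change of Atoh8 was -0.33 ± 0.130 (adjusted p = 0.0278), and the call was lost without normal replicate 1 (0.15) or 3 (0.136), among other settings. Msx1, a homeobox gene, fell by 0.60 ± 0.113 with the medium (adjusted p = 6.04e-05). Of the 3 bHLH partner genes of ID proteins, none was called in aging RGCs and 1, Tcf4, fell with the medium, by 0.24 ± 0.044 (adjusted p = 3.27e-05). The deposited annotation placed all 10 genes in the KEGG TGF-beta signaling pathway. Of the 57 other tested genes of that pathway, a list added after values were known, 14 were higher and 12 lower in aging RGCs, and 12 were higher and 17 lower with USCs medium than in aging RGCs, with medians of -0.01 and 0.01. Those medians lay close to the ones of all genes tested, whereas the median of the 10 genes was -0.44 in the second of these comparisons. The 10 genes were chosen with earlier results of these data known, so this contrast is a description only.

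As a description over the 9 libraries, the gene whose log2 CPM was most alike was Ctsd for Id2 (Pearson r = 0.996), a lysosomal protease gene, ahead of Selenow (0.991) and Abr (0.983). For Id3 they were Ubl3 (0.997), Gaa (0.996), the lysosomal alpha-glucosidase gene, and Tecpr1 (0.995). For Tgfb1 they were Phospho1, Khnyn and Pde4d (0.991, 0.988 and 0.986), and for Tgfb3 Zfp652, Sik3 and Plxna3 (0.996, 0.993 and 0.991). For Id4, Tspan12 came first (0.977) and for Id1 Gtf2ird2 (0.962). Among the 10 genes themselves the closest pair was Tgfb1 and Id3 at 0.977, and Id1 and Id2 were at 0.901. The libraries fall into 3 treatment groups, so these values mostly describe shared group levels, in a pool of 10871 genes.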

How the data were processed

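RNA from cells sold as mouse retinal ganglion cells was enriched with oligo(dT) and sequenced in 9 libraries, 3 per group. The authors deposited, per gene and library, expected counts and FPKM values, with mm10 as the genome build per the labels. For the aligner, counter and strand setting, a name or version was not given in the sources used here. No value column was left unassigned. Expected counts were rounded to whole numbers, and 12145 of 22322 genes passed filterByExpr. The counts of the 3 groups were fitted together with edgeR 4.0.16 in R 4.3.3 (TMM factors, quasi-likelihood test, 6 residual degrees of freedom, two-sided), and genes were called at a Benjamini-Hochberg adjusted p under 0.05. The common biological coefficient of variation was 3.78%. The fit was tested on simulated data. Replicates differed beyond counting noise, so none was merged. The members and the gene lists were chosen with earlier results of these data known. Named pathway genes were up to 4 per list whose mean log2 CPM reached 1 and that passed the test in 1 comparison or more, by largest absolute log2 fold change. A gene that this rule selected is not reported here. Ski, Pmepa1, Snai2, Hmga2 and the KEGG list were added after values were seen. For each member the 3 genes of highest Pearson r were found. Alternatives were DESeq2 1.42.0, limma 3.58.1 on log2(FPKM + 1) and log2(FPKM + 0.1), other scalings, filters and thresholds, a replicate block, and leaving out each replicate. Sequences are from RefSeq and coordinates from GENCODE, both on GRCm38.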

Additional observations from a re-analysis of the deposited data

How the results depend on the processing

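Of the results of the 10 genes under the alternatives, 532 kept their call, 14 gained one, 20 lost one and 1 moved. Of those of the other named genes, 1739 kept their call, 11 gained one, 68 lost one and 5 moved. No called value reversed. For aging against normal RGCs, 1 member in place of 3 was called higher with DESeq2, with limma on log2(FPKM + 0.1) and at an adjusted p under 0.01. A required log2 change of 1 left 0 higher and 0 lower members, and 132 higher and 190 lower genes in place of 2861 and 2788. For USCs medium against aging RGCs that threshold left 1 member lower, and 150 higher and 511 lower genes in place of 3292 and 3154. Higher genes numbered 2069 and 2084 with limma on log2(FPKM + 1) and log2(FPKM + 0.1), and 1952 with no filter. For USCs medium against normal RGCs the threshold left 1 member lower, and 179 higher and 637 lower genes in place of 3716 and 3634, and higher genes numbered 2367, 2377 and 2292 in those limma fits. Leaving out each replicate gave 1 to 3 higher and 1 lower member for aging against normal RGCs, 6 to 8 lower for USCs medium against aging RGCs, and 0 to 1 higher and 5 to 8 lower for USCs medium against normal RGCs. Over all genes the ranges were 2484 to 2804 higher and 2437 to 2829 lower, 2994 to 3437 and 2756 to 3227, and 3454 to 3707 and 3327 to 3622. With the replicate number as a block the members called higher and lower numbered 3 and 1, 0 and 8, and 0 and 7, and 1 of 126 gene results changed its call, that of Smad6 for USCs medium against aging RGCs. Same-numbered libraries did not deviate together (r of -0.05 to 0.04 over 9 pairs, 2 of 9 libraries closest to their own number), so the numbers were not taken as pairs. Without TMM factors the median log2 change of all genes was -0.11 for USCs medium against normal RGCs. The cause of these differences was not tested. Depth limits Bmp4, Tgfb2 and Id4 most, and Bmp4 was not tested where 1 CPM was required in 3 libraries.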

Other observations

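Further genes of the TGF-beta target list, named after their values were seen, split in aging RGCs. Snai2, a transcription factor gene known for its part in epithelial-mesenchymal transition, was at 18.8 ± 1.79 CPM in normal RGCs, 12.01 ± 1.40 CPM in aging RGCs and 11.7 ± 0.624 CPM with USCs medium. It fell by 0.64 ± 0.098 on the log2 scale in aging RGCs (edgeR adjusted p = 3.71e-06), with a log2 difference of -0.03 ± 0.104 for the medium against aging RGCs (adjusted p = 0.807). Hmga2, a chromatin protein gene, was at 121 ± 4.75 CPM in normal RGCs, at 149.7, 155.8 and 144.3 CPM in the aging libraries and at 146 ± 1.64 CPM with USCs medium, and rose by 0.31 ± 0.040 in aging RGCs (edgeR adjusted p = 1.95e-07). For the medium its log2 difference was -0.04 ± 0.039 (adjusted p = 0.445). Hmga2 shares exon bases with a gene on the other strand, and the strand setting of the counting is not known here.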
